A study of Mus musculus with 2 samples.

Results

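The cells described here were the proliferating macrophages of Lewis lung carcinoma (LLC) tumors, 581 of 40638 cell barcodes in the series. They were picked by measured levels. A barcode needed at least 1000 UMIs (mRNA molecules counted once each), under 10% of them mitochondrial, a low level of 4 LLC genes (Rhox5, Krt8, Krt18 and Hmga2), at least 1500 CPM (UMIs per 1000000 UMIs of the barcode) of the myeloid genes Tyrobp, Fcer1g and Ctss, and at least 1000 CPM of C1qa, C1qb and C1qc. Of the 4756 barcodes that passed, called C1q macrophages below, the 581 with at least 3 UMIs of Mki67 and Top2a were the members, 352 in the sGC Ctr library and 229 in the sGC ∆PC library. The 2709 C1q macrophages with neither transcript, 1191 and 1518, served as non-cycling macrophages for comparison. The genes of these steps are not reported as findings.

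Tumor macrophages are renewed by monocytes that arrive from blood and by division of macrophages already in the tissue. A dividing cell makes the enzymes of DNA replication and the histones that package new DNA in S phase, and then the kinases, cyclins and spindle proteins of G2 phase and mitosis. Mki67 encodes a protein that coats mitotic chromosomes, Top2a a topoisomerase that untangles them, and both transcripts are highest late in the cycle, so cells that have just left G1 phase are taken less often by the rule.

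LLC cells, a mouse lung cancer line, had been inoculated at 8 weeks of age into C57BL/6 mice that had received 5 doses of tamoxifen from 4 weeks of age, and the tumors were taken 2 weeks later. sGC Ctr mice were Gucy1b1 flox/flox, and sGC ∆PC mice carried in addition Cspg4-CreER T2, a tamoxifen-inducible Cre that removes Gucy1b1, a subunit of soluble guanylate cyclase (sGC), in cells with an active Cspg4 promoter, which marks pericytes (the label writes Gucyc1b1). Each genotype gave 1 library of cells pooled from 3 tumors. Genotype and library therefore cannot be told apart, no test between them was possible, and all intervals are exact at 95% and cover counting error only.

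The transcript of Cspg4, whose promoter drives Cre, was detected in the members. It stood at 49.8 CPM (326 UMIs) in sGC Ctr and 28.7 CPM (115 UMIs) in sGC ∆PC members, against 56.4 and 32.5 CPM in non-cycling macrophages. In cycling LLC cells it was at 0.24 and 0.31 CPM. All 8 pericyte genes together summed to 53.2 and 38.6 CPM in the members, most of it Cspg4, with Notch3 and Des at 0 in sGC Ctr. Gucy1b1 and Gucy1a1, which encode the sGC subunits, each had 0 UMIs in the members of sGC Ctr and 2 in those of sGC ∆PC, so deletion could not be examined in these cells.

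The members carried the genes of macrophages that the rule did not use. Csf1r, the receptor for colony-stimulating factor 1, stood at 419 CPM in sGC Ctr and 385 CPM in sGC ∆PC, with a UMI in 99.1 and 92.6% of members. Adgre1, which encodes the F4/80 antigen, stood at 283 and 206 CPM, and the lysosomal gene Cd68 at 685 and 587 CPM. None of 30 macrophage identity genes was 2-fold higher or lower than in non-cycling macrophages in both libraries, and their median log2 ratio was -0.07 in sGC Ctr and -0.04 in sGC ∆PC.

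No doublet caller was run, and the RNA of other cell types in the members is given here by marker lists. The 4 LLC genes of the rule reached 125 and 118 CPM in the members and 139 and 143 CPM in non-cycling macrophages, where the rule kept them low. The levels in the members were 4.84% and 4.79% of those in LLC cells of the same library. LLC cells were picked for at least 2000 CPM of the same genes. The small percentages thus follow largely from how both kinds of cell were picked, and are not evidence on LLC RNA in the members. The genes Ly6g (granulocytes), Pax5 (B cells) and Siglech (plasmacytoid dendritic cells) were at 0 in the members of both libraries, but other genes of their lists were detected. The summed levels in sGC Ctr and sGC ∆PC members were 4.13 and 7.23 CPM for 9 T cell genes, 2.29 and 2.74 CPM for 8 natural killer cell genes, and 17.3 and 26.9 CPM for 6 B cell genes. They were 7.79 and 8.72 CPM for 8 dendritic cell genes, 3.67 and 3.99 CPM for 6 mast cell genes, and 7.95 and 3.49 CPM for 6 red cell genes. In non-cycling macrophages T cell genes summed to 5.90 and 5.33 CPM and natural killer cell genes to 3.15 and 4.79 CPM. B cell genes summed there to 11.7 and 8.41 CPM, and dendritic cell genes to 5.19 and 7.86 CPM. Mast cell genes had 3.70 and 4.79 CPM and red cell genes 138 and 1.90 CPM. B cell genes were thus higher in members of both libraries. Dendritic cell genes were too, but stood at 4.74 and 6.48 CPM without the 1 cell highest in each library, under the non-cycling levels. Natural killer cell genes were lower in members, on 15 and 11 UMIs. Mast cell genes, on 24 and 16 UMIs, were level in sGC Ctr and lower in sGC ∆PC. Another 18 LLC genes outside the rule summed to 85.1 and 96.2 CPM. The 8 fibroblast genes summed to 501 and 805 CPM, but to 384 and 401 CPM without the 1 cell highest in each library. The 8 endothelial genes behaved likewise, with 26.9 and 71.3 CPM with all members and 11.8 and 16.4 CPM without the highest cell. The part of such cells in the results was not tested, beyond the values without the highest cell given below.

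Members had more UMIs than other macrophages. Their median depth was 17258.5 UMIs and 4211.5 genes in sGC Ctr and 17774 UMIs and 4144 genes in sGC ∆PC, against 10243 and 5505.5 UMIs in non-cycling macrophages. Part of that follows from the rule, since 3 UMIs are reached sooner in a deep cell. Every macrophage with at least 5000 UMIs was then thinned to 5000 UMIs. Cells that still held at least 2 UMIs of Mki67 and Top2a had median full depths of 16685 and 15226.5 UMIs, and cells that held 0 had 11254 and 12091 UMIs. With at least 1 UMI the medians were 13427 and 12377.5 UMIs, in sGC ∆PC near that of cells with 0. At that equal depth, members showed a median of 2037 and 2004 genes and non-cycling macrophages 1896 and 1872. Mitochondrial UMIs made up a median of 4.33% and 4.77% in members and 3.83% and 4.40% in non-cycling macrophages. The libraries shared 131 barcodes, none of them a member in both.

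The first question was how many macrophages were cycling in each genotype. Members were 16.2% of C1q macrophages in sGC Ctr (352 of 2178, 14.6 to 17.8%) and 8.88% in sGC ∆PC (229 of 2578, 7.81 to 10.0%). The share was lower in the sGC ∆PC library, and the intervals did not overlap. The sGC ∆PC macrophages were however shallower, with a median of 7660.5 UMIs against 11446. Thinned to 5000 UMIs, with 128 and 1023 shallower cells left out, the shares with at least 3 UMIs were 10.9% (9.56 to 12.3%) and 6.56% (5.38 to 7.91%). Summed over all C1q macrophages, which needs no threshold for a cell, Mki67 and Top2a stood at 306 CPM in sGC Ctr and 201 CPM in sGC ∆PC, a log2 difference of -0.61 (-0.66 to -0.56).

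Free RNA was judged from cells that should lack both transcripts. Granulocytes, which have left the cell cycle, contained 1 or more UMIs of Mki67 and Top2a in 17.4% of 92 sGC Ctr cells and 19.3% of 83 sGC ∆PC cells at 2000 UMIs, with median full depths of 2105 and 2295 UMIs. C1q macrophages at 2000 UMIs, with 16 and 432 shallower cells left out, had 18.7% and 18.4%, so a single UMI was not taken as a sign of cycling. The 4 LLC genes stood at 437 and 375 CPM in granulocytes and at 134 and 138 CPM in C1q macrophages. Free RNA was thus not alike in them, and how much of a single UMI is background was not tested. At 3 or more UMIs the macrophages had 5.74% (4.79 to 6.80%) and 2.66% (2.02 to 3.43%). The granulocytes had 0 of 92 and 0 of 83, which allow shares of up to 3.93% and 4.35%. The share of sGC ∆PC macrophages is under that limit, so at this depth granulocytes are too few to set it apart from background. At full depth 0 of 164 and 0 of 136 granulocytes reached 3 UMIs. Scaled by the LLC genes in each, the granulocyte level corresponds to 0.592 and 0.727 UMIs in a member of median depth. Members held a median of 13.5 and 6 UMIs. The rule limited the LLC genes in members but not in granulocytes, and it required 3 UMIs. The gap between these values thus follows in part from the rule and sets no bound on background.

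Replication and mitosis genes outside the rule gave the same order of the genotypes. At 5000 UMIs, 17.95% of sGC Ctr macrophages (16.3 to 19.7%) and 11.1% of sGC ∆PC macrophages (9.60 to 12.8%) held at least 20 UMIs of 47 replication and 63 mitosis genes. Among non-cycling macrophages the shares were 1.85% and 1.39%. Of the members, 84.7% in sGC Ctr (298 of 352, 80.5 to 88.3%) and 66.5% in sGC ∆PC (139 of 209, 59.7 to 72.9%) reached that number. At 2000 UMIs with at least 10 UMIs of these genes, 78.4% and 61.8% of members passed, against 1 of 92 and 2 of 83 granulocytes. Non-cycling macrophages had 1.45% and 3.26% there, in the opposite order of the libraries. The gap between members and non-cycling macrophages follows in part from the rule.

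The members of the sGC ∆PC library sat nearer the threshold. Exactly 3 UMIs were found in 52 sGC Ctr members (14.8%) and 61 sGC ∆PC members (26.6%), and 10 or more in 205 (58.2%) and 88 (38.4%). The threshold falls within a continuous range: just outside it, 144 and 200 macrophages had 2 UMIs. Summed replication genes were higher with more of the UMIs of the rule in sGC Ctr, from 728 CPM at 0 and 1404 CPM at 2 to 1946 CPM at 3, 3361 CPM at 4 to 9 and 4001 CPM at 10 or more. Mitosis genes went from 630 CPM at 0 UMIs to 1737 CPM at 3 and 9532 CPM at 10 or more. In sGC ∆PC, cells with 3 UMIs had replication genes at 883 CPM and mitosis genes at 1304 CPM. Those with 0 UMIs stood at 739 and 738 CPM. Granulocytes, whose LLC RNA was higher than that of macrophages, stood at 748 and 1223 CPM. Cells with 10 or more UMIs stood at 3775 and 8717 CPM, near the sGC Ctr level. Macrophages with 10 or more UMIs were 9.41% of C1q macrophages in sGC Ctr and 3.41% in sGC ∆PC.

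**Figure D1:**
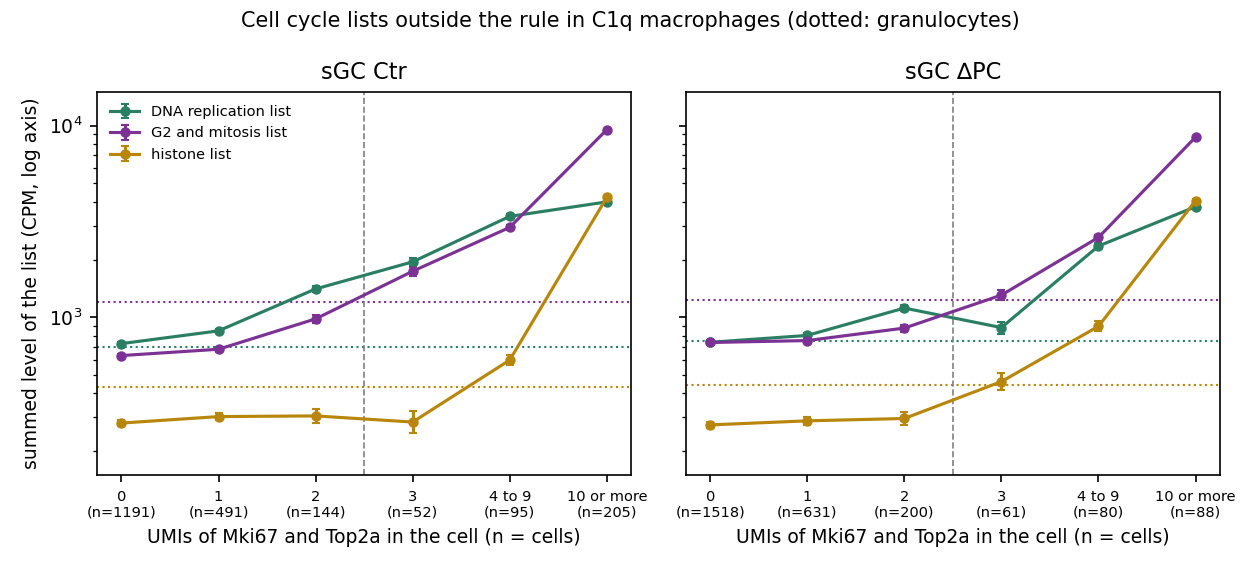
Summed replication, mitosis and histone genes (CPM, log axis) against the number of Mki67 and Top2a UMIs in a C1q macrophage, for both libraries, with dotted lines for granulocytes, bars for 95% counting intervals and a dashed line at the threshold. Members start at 3 UMIs, where the sGC ∆PC cells have 883 CPM of replication genes and the sGC Ctr cells 1946 CPM.

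The second comparison set the members against non-cycling macrophages of the same library. Almost the whole machinery of the cell cycle was higher in the members, from the enzymes of DNA synthesis to the spindle checkpoint, while genes of monocytes, immediate early genes and hypoxia genes were lower. Of 10042 genes with at least 50 UMIs in each library, 443 (4.41%) were at least 2-fold higher in both libraries and 79 (0.787%) at least 2-fold lower. The median log2 ratio of all genes was 0.08 in sGC Ctr and 0.12 in sGC ∆PC. Without a fold limit, 4992 of the 10042 genes were higher in both libraries and 2707 lower in both. Cells picked for Mki67 and Top2a are picked along the cell cycle, so the counts for cycle genes describe the cells and were not tested.

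Of 47 replication genes, 43 were at least 2-fold higher in both libraries and none lower, with median log2 ratios of 2.45 and 2.09. Rrm2, a subunit of the ribonucleotide reductase that makes deoxynucleotides, went from 4.09 to 95.4 CPM in sGC Ctr (log2 ratio 4.54, with an interval of 4.13 to 4.98) and from 7.14 to 71.5 CPM in sGC ∆PC (3.32, 2.96 to 3.70). Tk1, thymidine kinase, had ratios of 3.88 and 3.72, and Clspn, a mediator of the replication checkpoint, 4.67 and 3.62. The ratios of the clamp and the helicase were smaller. Pcna, the sliding clamp of DNA polymerase, had log2 ratios of 1.83 and 1.41 and Mcm5, a subunit of the replicative helicase, 2.56 and 2.32.

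Among 62 mitosis genes tested, 61 were at least 2-fold higher in both libraries, with median log2 ratios of 4.10 and 3.45. Ccna2, cyclin A, went from 3.30 to 129 CPM in sGC Ctr (5.29, 4.84 to 5.77) and from 7.96 to 87.0 CPM in sGC ∆PC (3.45). Cdk1, the kinase that starts mitosis, had log2 ratios of 4.06 and 3.07, Aurkb, a kinase that corrects chromosome attachment, 3.93 and 3.25, and Plk1, a kinase of the spindle poles, 4.67 and 3.60. Birc5, which encodes survivin, reached 311 and 219 CPM and Cenpf, a kinetochore protein, 240 and 180 CPM. The one tested mitosis gene under 2-fold was Bub3, a checkpoint protein, at 0.85 and 0.77. In cycling LLC cells, picked by the same UMI threshold, the summed mitosis genes stood at 4072 and 3879 CPM, against 6984 and 5249 CPM in the members. These LLC cells were deeper, with medians of 67170 and 37532 UMIs against 17258.5 and 17774. The same threshold is therefore looser in them, and the levels are not like for like.

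Replication-dependent histones, whose transcripts lack a poly(A) tail in most cells and are caught incompletely by this chemistry, were nonetheless among the largest differences. Of 32 tested, 30 were 2-fold higher in both libraries, at medians of 3.90 and 3.58. Hist1h1b, a linker histone, stood at 463 CPM in sGC Ctr members against 8.10 CPM (5.84, 5.55 to 6.14) and at 362 against 13.8 CPM in sGC ∆PC (4.71, 4.47 to 4.96). The histone genes share near-identical stretches, so how counts divide among them is uncertain. Another 4 of them, Hist1h3b, Hist1h2ab, Hist1h3c and Hist1h2bb, were, with Hist1h1b, among the 10 genes with the largest ratio, taken as that of the library nearer 0.

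Most of the other 5 of these 10 genes are known from the cell cycle or DNA repair. Neil3, a glycosylase that repairs replicating DNA, had 29.7 against 0.63 CPM in sGC Ctr (5.56, 4.55 to 6.79) and 24.2 against 0.72 CPM in sGC ∆PC (5.06, 4.03 to 6.32). Esco2, which acetylates cohesin in S phase, had log2 ratios of 5.46 and 4.69. Ckap2l, a spindle protein, went from 1.97 to 72.3 CPM in sGC Ctr and from 2.53 to 57.1 CPM in sGC ∆PC. Cdkn3, a phosphatase of cyclin-dependent kinases, had log2 ratios of 5.41 and 4.46, and Arhgef39, a guanine nucleotide exchange factor, 4.62 and 5.00.

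The promoters of both sets are shown because their members moved together. Late cycle genes are known to carry a CHR element (TTTGAA) beside CCAAT boxes, and replication genes E2F sites, searched here as TTTCCCGC, TTTGGCGC, TTTGCCGC or TTTCGCGC. Each was looked for on both strands in RefSeq windows (GRCm38.p6, the mm10 build) from 250 bases before to 50 bases after the start of the gene. Among mitosis genes with a window, 38 of 53 (71.7%) held the CHR letters, against 4 of 36 replication genes (11.1%) and 20.2% of 27025 genes. CCAAT was held by 73.6% of the mitosis genes, 61.1% of the replication genes and 41.1% of all genes. The E2F letters were in 15 of 36 replication genes (41.7%), 9.43% of mitosis genes and 2.61% of all genes. The windows below were picked among genes with a single window on record, outside an excluded chromosome, that holds the letters (CHR for mitosis genes). They are those of the genes with the largest ratio in each list, Ckap2l (chr2:129297163-129297462, minus strand), Cdkn3 (chr14:46760291-46760590, plus strand), Clspn (chr4:126556730-126557029, plus strand) and Mcm5 (chr8:75109259-75109558, plus strand). Capitals mark CHR and CCAAT letters in the first pair and E2F letters in the second, on either strand (overlapping matches run together), and a match is a description and not a site shown to be bound.
Ckap2l: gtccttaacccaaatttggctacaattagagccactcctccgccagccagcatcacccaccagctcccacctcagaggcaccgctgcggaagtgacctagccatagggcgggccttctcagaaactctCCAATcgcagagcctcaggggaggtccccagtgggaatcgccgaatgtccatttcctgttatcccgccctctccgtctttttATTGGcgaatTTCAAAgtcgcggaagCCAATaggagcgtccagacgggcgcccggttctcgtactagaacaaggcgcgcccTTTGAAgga
Cdkn3: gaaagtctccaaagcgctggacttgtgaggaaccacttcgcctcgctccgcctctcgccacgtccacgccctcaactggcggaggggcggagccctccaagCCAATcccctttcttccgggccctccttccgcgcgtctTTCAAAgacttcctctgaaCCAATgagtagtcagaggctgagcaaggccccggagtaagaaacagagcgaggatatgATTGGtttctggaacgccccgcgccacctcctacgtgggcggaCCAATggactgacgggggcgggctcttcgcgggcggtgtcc
Clspn: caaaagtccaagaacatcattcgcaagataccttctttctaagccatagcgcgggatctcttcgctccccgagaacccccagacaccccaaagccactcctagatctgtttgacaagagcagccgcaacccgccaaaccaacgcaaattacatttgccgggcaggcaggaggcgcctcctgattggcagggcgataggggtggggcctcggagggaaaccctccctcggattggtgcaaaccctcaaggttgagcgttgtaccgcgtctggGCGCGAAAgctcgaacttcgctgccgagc
Mcm5: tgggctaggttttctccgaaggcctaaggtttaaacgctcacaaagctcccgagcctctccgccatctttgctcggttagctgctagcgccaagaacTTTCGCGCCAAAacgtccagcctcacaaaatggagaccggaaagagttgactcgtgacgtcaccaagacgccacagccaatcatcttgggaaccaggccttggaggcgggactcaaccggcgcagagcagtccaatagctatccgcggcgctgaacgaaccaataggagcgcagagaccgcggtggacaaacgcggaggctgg

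Genes that act at the entry into S phase were mixed. Of 18 G1 cyclins, kinases and E2F factors, 7 were 2-fold higher in both libraries, at medians of 1.22 and 0.91, which were 0.54 and 0.09 over 8 genes with 0 UMIs of LLC genes. Ccne2, cyclin E2, had log2 ratios of 3.96 (3.49 to 4.46) and 3.17 (2.65 to 3.72), and E2f8, a repressor made in S phase, 3.32 and 2.62. Ccnd1, cyclin D1, was higher by 0.71 and 0.67, Cdk6 by 0.05 and 0.13, and Myc by 0.08 and 0.09. Hmgb2 (2.90 and 2.37) and Stmn1 (3.69 and 3.50), a chromatin and a microtubule protein of dividing cells, belong to a further list in which 17 of 22 genes were 2-fold higher in both libraries.

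Inhibitors of the cycle did not move as one. Of 21 tested, 4 (Klf4, Gadd45b, Tob1 and Mxd1) were 2-fold lower and 2 were 2-fold higher in both libraries. Klf4, a transcription factor that can induce p21, went from 335 to 119 CPM in sGC Ctr (-1.49, -1.61 to -1.38) and from 443 to 172 CPM in sGC ∆PC (-1.37, -1.48 to -1.25). Cdkn1a, which encodes p21, was at log2 ratios of -0.41 and -0.72. Cdkn2c, an inhibitor of Cdk4 and Cdk6, went the other way at 2.78 and 1.97, as did Rbl1, an RB-family protein, at 2.18 and 1.96.

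**Figure D2:**
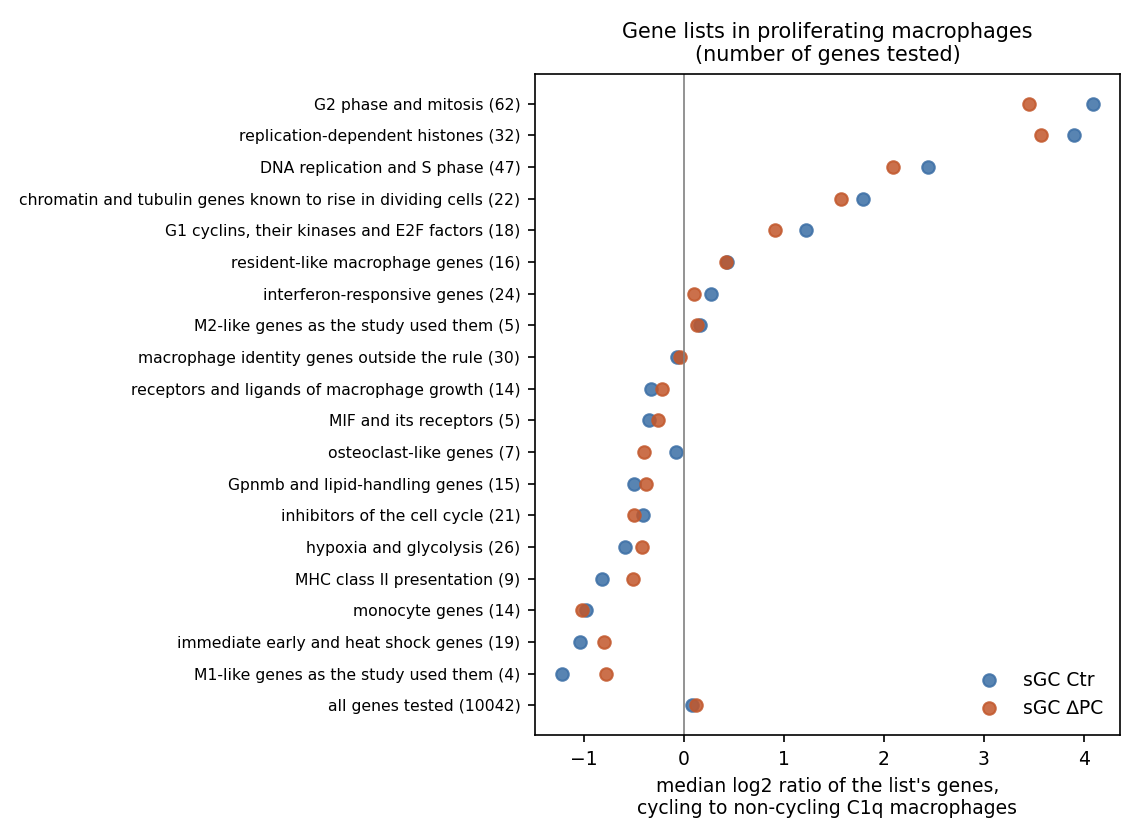
Median log2 ratio of cycling to non-cycling C1q macrophages (x axis) for each gene list (y axis, number of genes tested in brackets), with points for the sGC Ctr and sGC ∆PC libraries. Mitosis genes lie at 4.10 and 3.45, M1-like genes at -1.22 and -0.78, and all genes at 0.08 and 0.12.

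Monocyte genes were lower in the members, 6 of 14 by 2-fold in both libraries. Ly6c2, the surface antigen of inflammatory monocytes, went from 11.3 to 1.68 CPM in sGC Ctr (-2.75, -3.79 to -1.87) and from 28.3 to 2.49 CPM in sGC ∆PC (-3.50, -4.58 to -2.61). Plac8 had log2 ratios of -2.25 and -1.24. Ccr2, the receptor that draws monocytes into tissue, was lower by less, from 276 to 149 CPM and from 294 to 167 CPM. Csf1r had log2 ratios of -0.03 and 0.14.

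Of 16 resident-like genes, 12 were higher in both libraries, 2 of them past 2-fold, and 1 was lower in both. Of all 10042 genes, 4992 were higher in both and 2707 lower in both. The medians of the resident-like genes were 0.43 and 0.42. Their direction depended on which cells were kept. With 0 UMIs of LLC genes allowed, 1 of 13 was higher in both libraries and the sGC ∆PC median was -0.34, and without cells above the 90th percentile of UMIs the medians were 0.05 in each. Lyve1, a hyaluronan receptor of perivascular macrophages, was at 88.3 against 28.6 CPM in sGC Ctr (1.63, 1.43 to 1.82) and 76.0 against 19.2 CPM in sGC ∆PC (1.99, 1.73 to 2.25), in 10% and 7% of members. Ccl8, a chemokine, had log2 ratios of 1.58 and 1.14 and was found in 30% and 26% of members. Mrc1, the mannose receptor, was at 795 against 589 CPM (0.43) and 573 against 398 CPM (0.53).

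Inflammatory and antigen-presentation genes were lower. All 9 tested genes of MHC class II were lower in both libraries, none by 2-fold, with medians of -0.82 and -0.51. With 0 UMIs of LLC genes the medians were -2.41 and -0.17 over 7 genes. Il1b, the cytokine interleukin 1 beta, went from 315 to 48.4 CPM in sGC Ctr (-2.70, -2.87 to -2.54) and from 411 to 165 CPM in sGC ∆PC (-1.32, -1.44 to -1.20). Of 4 M1-like genes tested, a set the study used, Il1b alone passed 2-fold. Arg1, arginase 1, was the only one of 5 M2-like genes to pass, at -1.71 and -1.18. It was also lower with Gpnmb (-1.61 and -1.15) in a list of 15 Gpnmb and lipid-handling genes, in which Hmox1 (-1.23 and -0.34) and Spp1 (-0.78 and -0.38) did not pass. Of 7 osteoclast-like genes, the proteases Mmp9 (-2.05 and -1.19) and Ctsk (-1.45 and -1.61) were 2-fold lower.

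Hypoxia and glycolysis genes were lower in both libraries for 25 of 26 genes, though 2 passed 2-fold, Vegfa and Egln3. Vegfa, the endothelial growth factor, went from 75.8 to 19.9 CPM (-1.93, -2.21 to -1.67) and from 116 to 49.6 CPM (-1.22, -1.45 to -1.01). Slc2a1, the glucose transporter GLUT1, had log2 ratios of -1.25 and -0.77 and Gapdh -0.30 and -0.16. Among 19 immediate early and heat shock genes, 6 were 2-fold lower in both libraries, among them Nr4a1 (-2.09 and -1.17), Atf3 (-1.61 and -1.13) and Hspb1 (-2.52 and -1.66). Hspa8, a constitutive chaperone, was at 0.16 and 0.29.

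The 10 genes with the lowest ratio were Hdc, G0s2, Ly6c2, Slpi, Retnlg, S100a9, Ppbp, Thbs1, Hp and Chil3. Thbs1, the matrix protein thrombospondin 1, went from 149 to 16.05 CPM (-3.22) and from 281 to 62.1 CPM (-2.18, -2.37 to -1.99). S100a9, a calgranulin of granulocytes and monocytes, went from 128 to 10.4 CPM (-3.62) and from 147 to 25.4 CPM (-2.53). Among cells with at least 5000 UMIs its ratios were -2.55 and -0.50, so that it was no longer 2-fold lower in sGC ∆PC. Granulocyte genes as a list summed to 35.8 and 62.8 CPM in the members and 247 and 279 CPM in non-cycling macrophages, and 4 of the 5 tested were 2-fold lower, 3 of them among these 10 genes. Red cell genes summed to 138 CPM in sGC Ctr non-cycling macrophages and to 1.90 CPM in those of sGC ∆PC. The part of granulocyte RNA in these ratios was not tested. Growth receptors and interferon genes had no member past 2-fold in both libraries, with 14 and 24 genes tested.

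Members were not a single point of the cycle. The UMIs of mitosis genes, as a share of those of replication and mitosis genes in a cell, had a median of 62.5% in both libraries, with quartiles of 34.3 and 83.3% in sGC Ctr and 44.4 and 81.2% in sGC ∆PC. With limits at 33.3 and 66.7%, 86 sGC Ctr members (24.4%) were low, 100 (28.4%) in the middle and 166 (47.2%) high, and in sGC ∆PC 31 (13.5%), 91 (39.7%) and 107 (46.7%). These are ranges of a score and not types, and 57 and 48 cells lay within 5 points of a limit. Free RNA enters the score, and its part was not tested. Across members the Spearman correlation of replication with mitosis CPM was 0.005 in 352 sGC Ctr cells and 0.40 in 229 sGC ∆PC cells, a description of cells that share a library.

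**Figure D3:**
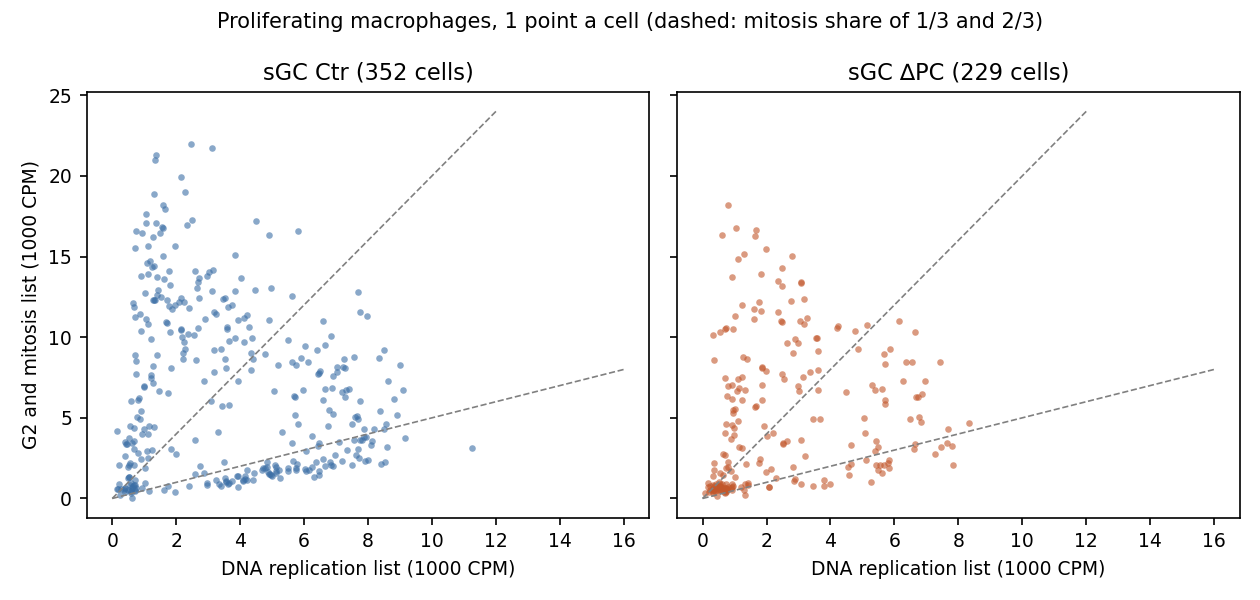
Replication genes (x axis) against mitosis genes (y axis), both in 1000 CPM, with 1 point per member in each library and dashed lines at mitosis shares of 33.3 and 66.7%. A band of cells with high replication and low mitosis levels, below the lower line, is seen in both libraries, with 86 sGC Ctr and 31 sGC ∆PC cells in the low range, and sGC ∆PC cells are dense near the origin.

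Other genes also differed along this share. Ccne2 was at 92.8, 92.9 and 3.62 CPM in the low, middle and high ranges of sGC Ctr and at 80.7, 41.7 and 7.48 CPM in sGC ∆PC. Histones peaked in the middle range of sGC Ctr, at 523, 5042 and 2707 CPM. In sGC ∆PC they were at 615, 2490 and 2724 CPM. Ccnd1 was highest in the low range, at 718, 345 and 310 CPM in sGC Ctr and 531, 360 and 249 CPM in sGC ∆PC, while Csf1r was at 425, 426 and 412 CPM in sGC Ctr and 445, 354 and 393 CPM in sGC ∆PC. Cdc20, an activator of the anaphase complex and part of the mitosis list, went from 4.42 to 134 CPM between the low and the high range in sGC Ctr.

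The place of cycling cells among macrophage states was examined by ranking C1q macrophages with at least 5000 UMIs on lists that hold no cycle gene and dividing them into 3 tiers of equal size. Cycling cells were concentrated where the summed monocyte list was low. That sum is not specific to monocytes: it was 11235 and 10731 CPM in cycling LLC cells, against 7729 and 8283 CPM in the members. Ly6c2 made up only 11.3 and 28.3 CPM of the 10967 and 11474 CPM of non-cycling macrophages. In the lowest, middle and highest tier of monocyte genes, 28.7% (25.3 to 32.2%), 17.98% and 4.83% (3.35 to 6.72%) of sGC Ctr macrophages were members, and in sGC ∆PC 23.6% (19.96 to 27.4%), 12.3% and 4.44% (2.84 to 6.59%). Hypoxia genes gave 29.0%, 15.2% and 7.32% in sGC Ctr and 20.5%, 12.1% and 7.72% in sGC ∆PC. Gpnmb and lipid-handling genes gave 25.3% against 6.88% between the lowest and highest tier in sGC Ctr and 22.6% against 7.34% in sGC ∆PC.

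Interferon-responsive genes ran the other way. Members were 9.08% (7.03 to 11.5%), 19.3% and 23.1% (20.02 to 26.5%) of the tiers in sGC Ctr and 7.14% (5.08 to 9.71%), 14.6% and 18.5% (15.3 to 22.2%) in sGC ∆PC. The summed Mki67 and Top2a level went the same way, from 201 to 428 CPM and from 110 to 272 CPM between the lowest and highest tier, as it did for monocyte genes, from 458 to 84.9 CPM and from 365 to 69.8 CPM. MHC class II tiers held 20.6% (17.7 to 23.9%), 16.4% and 14.5% (11.9 to 17.4%) members in sGC Ctr, where the outer intervals do not overlap, and 14.1%, 14.5% and 11.8% in sGC ∆PC, where they do. For resident-like tiers the share and the level went opposite ways. The share was 14.9% and 19.5% in the lowest and highest tier of sGC Ctr and 12.2% and 15.1% in sGC ∆PC, with overlapping intervals, while Mki67 and Top2a stood at 308 and 269 CPM and at 206 and 182 CPM. For osteoclast-like tiers the shares were 15.8% and 18.4% in sGC Ctr, beside 348 and 294 CPM, and 8.49% and 17.4% in sGC ∆PC, beside 168 and 177 CPM, so no order is read from either list. The levels are shares of a cell's UMIs, which include cycle transcripts, and median depths differed between tiers, for example 13037 and 10798 UMIs in the lowest and highest monocyte tier of sGC Ctr, and 10129 and 13419 UMIs in those of the resident-like genes.

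**Figure D4:**
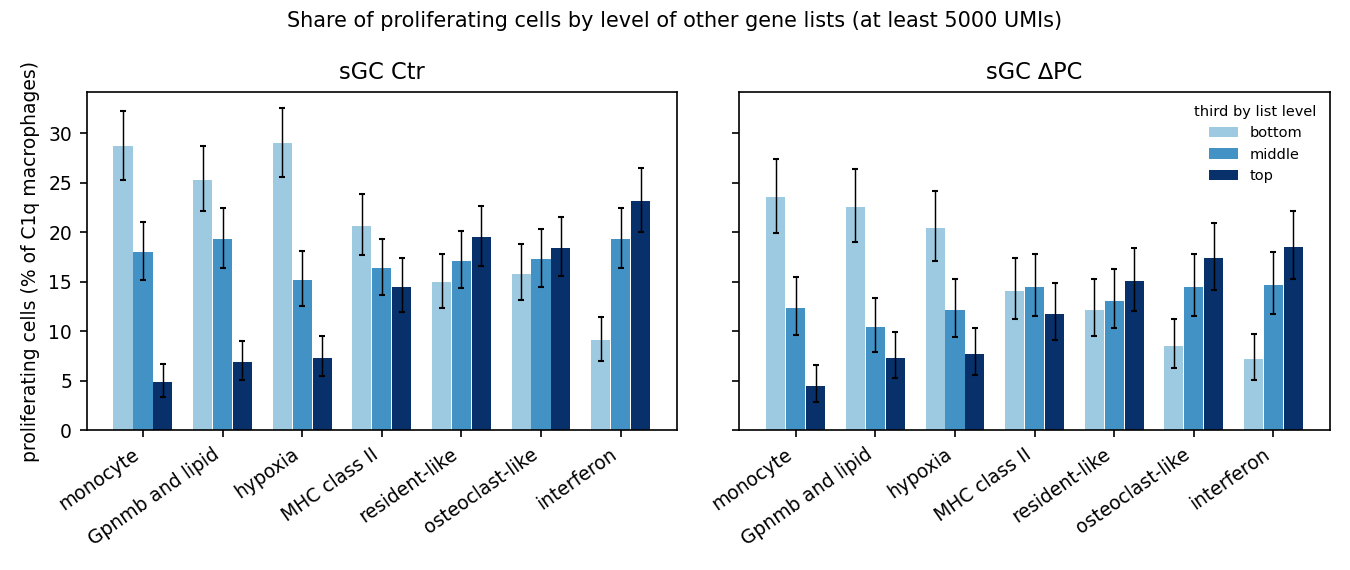
Share of members (y axis, percent, with 95% binomial intervals) among C1q macrophages with at least 5000 UMIs, in the lowest, middle and highest tier of each gene list (x axis), by library. The share falls from 28.7 to 4.83% over the monocyte tiers and climbs from 9.08 to 23.1% over the interferon tiers in sGC Ctr.

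The third comparison set sGC ∆PC members against sGC Ctr members, 1 library each. MHC class II genes and several inflammatory genes were higher in sGC ∆PC members, and replication, mitosis and resident-like genes were lower, mostly by less than 2-fold. Among 9553 genes that reached 50 UMIs over the members of both, 110 (1.15%) were at least 2-fold higher and 44 (0.461%) at least 2-fold lower in sGC ∆PC. In non-cycling macrophages 107 and 31 of 10668 genes were so. They included 15 of the 110 genes and 4 of the 44. The median over all genes was -0.03, and 4225 of the 9553 were higher in sGC ∆PC without a fold limit.

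The MHC class II list had 7 of 7 tested genes higher in sGC ∆PC members, with a median of 0.85, and in non-cycling macrophages the list had a median of 0.51. The median in members was 2.20 over 6 genes with 0 UMIs of LLC genes, and 0.56 without cells above the 90th percentile of UMIs. H2-Aa, an alpha chain, stood at 761 against 416 CPM (0.87, 0.80 to 0.95) and was found in 52.8% against 31.8% of members. Cd74, the invariant chain, stood at 1892 against 1084 CPM (0.80, 0.76 to 0.85). Ciita, the master regulator of the class, passed 2-fold at 25.7 against 9.02 CPM (1.51, 1.03 to 2.00). Mif, whose product binds the Cd74 protein, was at 0.15.

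Hypoxia genes were higher in 26 of 26, with a median of 0.22 and 2 past 2-fold, Vegfa (1.32, 0.99 to 1.65) and Adm (1.01, 0.56 to 1.47). In non-cycling macrophages the median was 0.04. The direction turned with 0 UMIs of LLC genes, where 8 of 21 were higher and the median was -0.08. Among 19 immediate early and heat shock genes, 3 passed 2-fold, Dusp1, Nr4a1 and Hspb1. Dusp1, a phosphatase of MAP kinases, stood at 336 against 138 CPM (1.28, 1.16 to 1.41) in 78.2% against 60.8% of members. The M1-like list had a median of 1.15 against 0.24 in non-cycling macrophages, with Il1b at 165 against 48.4 CPM (1.77, 1.57 to 1.96) and Nos2, inducible nitric oxide synthase, at 11.2 against 2.75 CPM (2.03, 1.21 to 2.90). These genes are a set the study used, so their direction is not independent evidence.

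Cycle genes were lower. Of 47 replication genes 1 was higher and the median was -0.41, where non-cycling macrophages had 0.01. For 63 mitosis genes these values were 1, -0.38 and 0.36. Mcm10, which acts at the start of replication, was the one past 2-fold, at 15.0 against 32.9 CPM (-1.14, -1.57 to -0.72). Ccna2 was at -0.57, Ube2c, a ubiquitin-conjugating enzyme of mitosis, at -0.67, and Tk1 at -0.55. Histones had a median of -0.08. As given above, more sGC ∆PC members sat at 3 UMIs. With members taken from 5 UMIs up, the medians were -0.20 for replication genes, with 6 of 47 higher, -0.16 for mitosis genes, with 13 of 63 higher, and 0.13 for histones. Without cells above the 90th percentile of UMIs the median of replication genes was -0.87 and that of histones -0.39.

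Resident-like genes had 3 of 17 higher and a median of -0.47, beside -0.52 in non-cycling macrophages. Pf4, a chemokine, stood at 714 against 1172 CPM (-0.72, -0.78 to -0.65), Mrc1 at 573 against 795 CPM (-0.47, -0.54 to -0.40), and Stab1, a scavenger receptor, at log2 -0.60. Cd209f, a lectin, was past 2-fold, with 3 against 80 UMIs, 40 of the 80 in 1 cell.

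The genes farthest apart between the libraries rested on few cells. The 10 higher by their interval were Ccl11, Saa3, Inhba, Flt1, Igfbp3, Crabp1, Apln, Slc7a2, Thbs1 and Postn, and the 10 lower Cxcl13, Cd209f, Ifit1, Cmpk2, Abi3bp, Ccl5, Ifit3, Eif3j2, Pbld1 and Rsad2. In 16 of the 20, 50% or more of the UMIs of the higher library came from 1 cell. A single sGC ∆PC cell gave 59 of 63 UMIs of Ccl11, a chemokine for eosinophils, and a single one 130 of 143 UMIs of Igfbp3, a binder of insulin-like growth factors. One sGC Ctr cell held all 55 UMIs of Cxcl13, and one 309 of 353 UMIs of Rsad2, an antiviral enzyme. Over all genes this held for 27 of the 110 and 11 of the 44. Without the highest cell of each gene, 77 and 43 genes passed 2-fold, 62 and 28 of them in both ways of counting. Endothelial genes, with 4 of 5 tested past 2-fold (Pecam1, Cldn5, Kdr and Egfl7), and fibroblast genes, with 3 of 8 (Col1a2, Dcn and Lum), moved with the higher genes, and the highest sGC ∆PC cell for each list held 220 of 286 endothelial and 1622 of 3231 fibroblast UMIs.

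**Figure D5:**
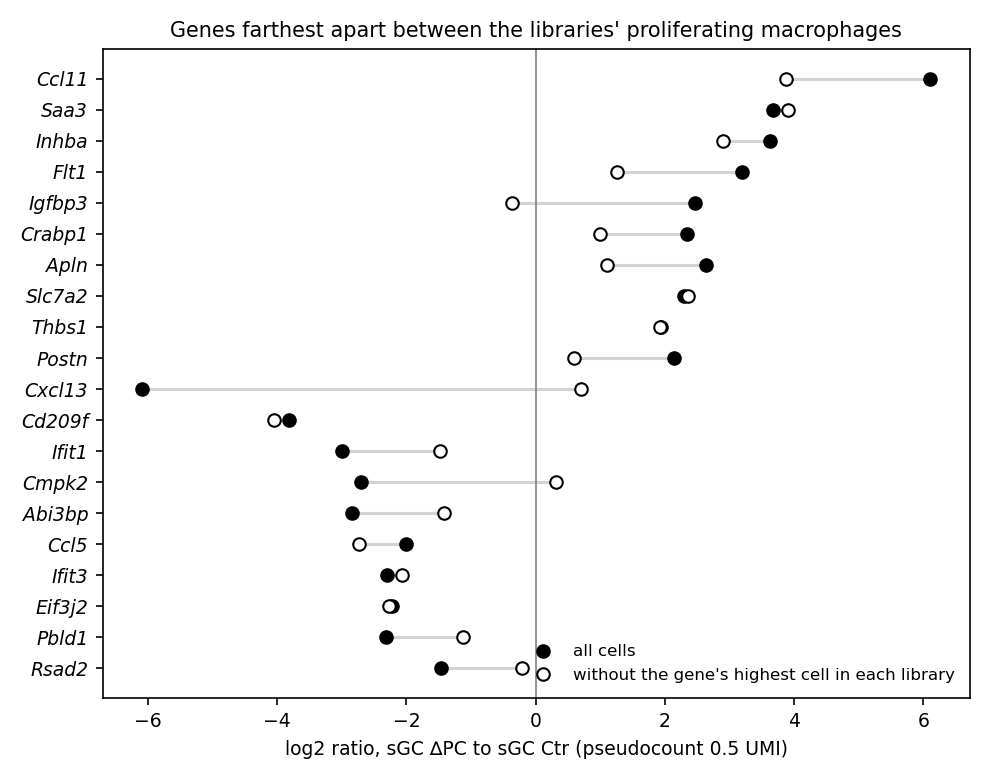
Difference between the libraries' members on the log2 scale (x axis, sGC ∆PC over sGC Ctr, pseudocount 0.5 UMIs) for the 20 genes named by rule (y axis), with filled points for all cells and open points without the highest cell of the gene in each library. Igfbp3 and Cmpk2 cross 0, to -0.37 and 0.32, as does Cxcl13, which has no UMI left, while Slc7a2, Thbs1 and Eif3j2 hardly move.

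Some genes past 2-fold were spread over many members. Slc7a2 and Eif3j2 are among those 20, and the others given here were chosen after their values were seen. Slc7a2, a transporter of arginine, had 104 UMIs in 41 sGC ∆PC cells and 34 UMIs in 23 sGC Ctr cells, a log2 difference of 2.32 (1.75 to 2.92) that was 2.37 without the highest cell. Mmp3, a matrix metalloproteinase, was in 34.5% against 14.2% of members (1.90, 1.43 to 2.39), and in cycling LLC cells it stood at 153 against 57.1 CPM. The part of LLC RNA in that difference was not tested. Upp1, uridine phosphorylase, was in 26.2% against 14.2% of members. Cxcl2, a chemokine for granulocytes, stood at 514 against 238 CPM (1.11, 1.01 to 1.20), and at 0.18 in non-cycling macrophages. Eif3j2, a translation factor gene with a near copy, had 11 against 87 UMIs (-2.28, -3.33 to -1.37), and -2.72 in non-cycling macrophages. Fcrls, an Fc receptor-like gene of macrophages, stood at 54.8 against 127 CPM (-1.21, -1.43 to -0.99). Gm42418, which overlaps ribosomal RNA, was also higher, by 1.08 in members and 1.26 in non-cycling macrophages.

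Interferon-responsive genes differed in both directions. Among 24 genes, 4 were 2-fold lower in sGC ∆PC members, Ifit1, Ifit2, Ifit3 and Rsad2, yet the median of the list was 0.18. Without cells above the 90th percentile of UMIs, Ifit1 was at 0.12, Ifit3 at -0.68 and Rsad2 at 1.99. Ifit1, an antiviral protein that binds RNA, had 133 of its 162 sGC Ctr UMIs in 1 cell. Irf1, a transcription factor of the interferon response, stood at 49.3 against 26.7 CPM (0.88, 0.58 to 1.19) and was detected in 41% against 24% of members, with sGC ∆PC given first.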

How the data were processed

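Single cells of LLC tumors were measured in 2 libraries, sGC Ctr and sGC ∆PC, each of 3 pooled tumors. The authors counted UMIs per gene and barcode, with Cell Ranger 6.1.1 and the mm10 genome per the submitters' processing notes, and deposited the raw counts for 15007 and 25631 barcodes. The authors' clusters and quality-filtered barcodes were not used here. The members and gene lists were chosen with earlier results of these data known.

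Computation used Python 3.11.15, numpy 2.4.6, scipy 1.17.1, pandas 2.3.3 and matplotlib 3.10.9. The counts were used as deposited. The level of a gene in a group of cells was its summed UMIs per 1000000 UMIs of the group (CPM), over 6542967 and 4012297 UMIs of members. Log2 ratios printed for genes are of CPM, with exact conditional intervals. Calls and medians of lists used a pseudocount of 0.5 UMIs and genes with at least 50 UMIs in the cells compared, within each library for cycling against non-cycling cells. A call means 2-fold or more, in both libraries where cycling and non-cycling cells were compared. Shares have Clopper-Pearson intervals, and levels Poisson intervals, all at 95%. A count of 0 allows up to 3 counts. Thinning drew 5000 or 2000 UMIs per cell without replacement. LLC cells had at least 2000 CPM of the 4 LLC genes and under 300 CPM of the myeloid genes, and granulocytes at least 20000 CPM of S100a8 and S100a9 and no UMI of the C1q genes. Genes were matched by symbol (the first of a duplicated one), and promoters taken from RefSeq.

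The genes named were the 10 with the largest and the 10 with the lowest ratio of cycling to non-cycling cells, by the library nearer 0, the 10 each way between libraries by the interval bound nearer 0, and examples of the lists. Others are said to be chosen after their values were seen. With 1 library per genotype there was no replicate and no test. The steps were tested on simulated data. The alternatives changed the limits on LLC genes, C1q, quality, depth, Mki67 and Top2a and UMIs per gene, the weight of cells, the pseudocount, the scaling and the centring of ratios. The alternatives chosen after seeing the data were at least 10 UMIs of Mki67 and Top2a, and leaving out the highest cell of each gene.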

Additional observations from a re-analysis of the deposited data

Results flagged for a closer look

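In the members, 4 genes were higher than in non-cycling macrophages of one library and lower in the other, each by 2-fold or more with the pseudocount, and these differences were not tested. Ccl5, a chemokine for T cells, had log2 ratios of 1.36 in sGC Ctr and -2.19 in sGC ∆PC, with 185 of its 298 UMIs in sGC Ctr members in 1 cell, and 244 of 567 UMIs in sGC ∆PC non-cycling macrophages in 1 cell. Cmpk2, a mitochondrial nucleotide kinase induced by interferon, had 1.26 and -2.61, with 71 of 79 sGC Ctr UMIs in 1 cell. Meg3, a long noncoding RNA, had -1.11 and 1.51, with 23 of 31 sGC ∆PC UMIs in 1 cell. Saa3, an acute phase protein of macrophages, had -1.34 and 1.69, with its 97 sGC ∆PC UMIs in 12 cells and 38 of them in 1.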

How the results depend on the processing

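No paired analysis was possible because each genotype has 1 library, and for the same reason no replicate could be left out. The share of cycling C1q macrophages (16.2% in sGC Ctr, 8.88% in sGC ∆PC) was lower in sGC ∆PC under every alternative run for it. It moved to 10.9 and 4.48% with 0 UMIs of LLC genes allowed, to 45.3 and 41.1% at 1 UMI of Mki67 and Top2a, to 12.4 and 5.24% at 5 UMIs, to 9.41 and 3.41% at 10 UMIs, and to 11.6 and 5.86% without cells above the 90th percentile of UMIs. Thinned to 5000 UMIs it was 29.9% (27.9 to 31.9%) and 28.2% (25.9 to 30.5%) at 1 UMI, where the intervals overlapped. At 3 UMIs it was 10.9 and 6.56%. The sGC ∆PC share alone moved to 10.4% without a limit on LLC genes and to 13.4% from 5000 UMIs up. The summed Mki67 and Top2a level (-0.61) became -0.38 with 0 UMIs of LLC genes, -0.49 without that limit and -0.37 as a mean of the cells' CPM.

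Genes 2-fold higher in cycling cells (443) numbered 141 with 0 UMIs of LLC genes, 249 at 1 UMI, and 219 with at least 200 UMIs per gene. Those lower (79) numbered 4 at 1 UMI, 141 at 5 UMIs and 51 with 200 UMIs per gene. Genes higher in sGC ∆PC members (110) numbered 43 with 0 UMIs of LLC genes, 69 at 5 UMIs, 57 at 10 UMIs, and 228 and 31 with 20 and 200 UMIs per gene. Those lower (44) numbered 73 at 1 UMI, 93 without the cells above the 90th percentile, 67 as a mean of the cells' CPM, and 123 and 6 with 20 and 200 UMIs per gene. Genes that changed direction between libraries were Igfbp3 (-2.88 at 5 UMIs, and -0.37 without its highest cell), Cmpk2 (0.32 without its highest cell), and Ifit1 (0.12), Ccl5 (0.90) and Rsad2 (1.99) without cells above the 90th percentile. The cause was not tested. Of the other values 577 held and 108 moved. Among these, 5 and 5 changed sign, all of them medians of lists under 2-fold. Those that moved were, with 0 UMIs of LLC genes, resident-like genes of sGC ∆PC members against non-cycling cells (0.42 to -0.34) and hypoxia genes between libraries (0.22 to -0.08), and interferon genes of sGC Ctr members against non-cycling cells (0.27), which became -0.18 without cells above the 90th percentile, -0.07 as a mean of the cells' CPM and -0.19 without the highest cell of each gene. Another 23 were not computed because a gene had under 10 UMIs.

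One library per genotype cannot show variation between tumors, and pooled tumors carry no mark. The 229 sGC ∆PC members and their 4012297 UMIs limit genes of low level, and 1023 sGC ∆PC macrophages were too shallow for thinning to 5000 UMIs.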

Other observations

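Of 14 receptors and ligands of macrophage growth tested, 8 were higher in sGC ∆PC than in sGC Ctr members, none by 2-fold, with a median of 0.14. Il10ra, the receptor of interleukin 10, stood at 72.3 against 44.0 CPM (log2 0.72, 0.48 to 0.96) and Csf2rb, a shared chain of growth factor receptors, at 59.6 against 43.7 CPM (0.45, 0.19 to 0.70). Csf1r was at -0.12 (-0.21 to -0.03). Csf2 had no UMI in members of either library. Outside that list, Cxcr4, a chemokine receptor, stood at 60.3 against 29.0 CPM (1.05, 0.77 to 1.34), in 40.2% against 32.4% of members. It was at 0.39 in non-cycling macrophages.

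Inhibitors of the cycle were higher in sGC ∆PC members for 14 of 21 genes tested, with a median of 0.25 beside 0.23 in non-cycling macrophages. Btg2, an antiproliferative protein, stood at 125 against 68.3 CPM (0.87, 0.68 to 1.05), and Cdkn1b, which encodes p27, at 62.8 against 42.2 CPM (0.57, 0.32 to 0.83). Cdkn1a was level at 0.02 (-0.08 to 0.13).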
